A study of Mus musculus with 20 samples.

Results

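The 42 genes described here encode the machinery that folds, modifies, exports, trims and crosslinks collagen: the prolyl and lysyl hydroxylases and their partners, the endoplasmic reticulum (ER) chaperones of procollagen, the ER export and retrieval proteins, the propeptide proteinases and the lysyl oxidases. They were taken as the rows of the count table whose Ensembl identifier maps to 42 listed mouse symbols, and all 42 were found among the 54446 genes of the table. The list was drawn up with the dexamethasone (DEX) comparisons in view, since some of its members had been seen among the strongest falls under DEX. The values of the members in the 2 DEX comparisons are therefore a description. The numbers of members called by the fit over all genes are given there beside the share of all genes called, and nothing is read from them. Tests are given for the loading comparisons and the interaction, which share libraries with the DEX comparisons and are not independent of them.

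Procollagen chains enter the ER, where prolyl 4-hydroxylation gives the triple helix its thermal stability and lysyl hydroxylation and glycosylation prepare the sites of later crosslinks. Dedicated chaperones such as HSP47 hold the folded helix until large export carriers take it to the Golgi, after which proteinases remove the propeptides and lysyl oxidases start covalent crosslinking in the matrix. In bone, type I collagen is the main product of the osteoblast, and inherited loss of many of these proteins, among them HSP47, FKBP65, CRTAP, prolyl 3-hydroxylase 1 and TRIC-B, causes brittle bone disease.

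The study asked how a glucocorticoid alters the response of bone to mechanical load. Male C57BL/6J mice, 3 months old, received subcutaneous DEX at 1 mg/kg or injection water (Vehicle) for 5 days. Axial compression of the left tibia reached -13 N, with 40 cycles in each session, on days 1 and 3 per the labels although the text of the study also describes another number of sessions, while the unloaded right tibia was the control (Ctrl). RNA from the pulverized tibia gave 20 libraries in 4 groups of 5, named Vehicle_Ctrl, Vehicle_Load, DEX_Ctrl and DEX_Load. Replicates are numbered 1, 2, 4 and 5 in the vehicle groups, with 1 further library, called unnumbered, whose column number is in no label, and 1 to 5 in the DEX groups. Values are listed in that order.

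Library totals ran from 4641437 to 13032018 counts, the lowest in DEX_Load replicate 4, which also had the lowest median correlation with the other libraries of its group (0.718). The text of the study removes an outlier called DEX-4, and which of the DEX libraries numbered 4 it means is uncertain. DEX_Ctrl replicate 4 was left out of the reported fits, though its values are listed; its median correlation with its group was 0.842, above that of DEX_Load replicate 4. With DEX_Load replicate 4 left out in its place, 38 members were called in loaded tibiae in place of 39, and the member median was -0.17 for loading under DEX (37 of 42 below 0) and -0.30 for the interaction (32 of 42 below 0). With all 20 libraries 29 members and 2924 genes were called in unloaded tibiae, in place of 24 and 1353. Of 5 genes known to be induced by glucocorticoids, 2 rose in loaded tibiae under DEX (Fkbp5 by 0.87 ± 0.17 and Zbtb16 by 1.01 ± 0.21 on the log2 scale) and 0 rose in unloaded tibiae, where Fkbp5 was at 0.81 ± 0.24 and not called, 4 of the 5 were below 0 and Sgk1 fell (-0.63 ± 0.15). Reads on 1965 olfactory and vomeronasal receptor genes, which bone is not known to express, summed to 261 to 933 CPM in Vehicle_Load and 1098 to 6495 CPM in DEX_Load, groups that did not overlap, and to 392 to 1364 CPM in Vehicle_Ctrl and 800.4 to 2918 CPM in DEX_Ctrl. The study counts its replicates as mice, while the labels do not tie a library to a mouse, and p-values measure the spread between these samples.

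Levels are given as CPM, counts scaled to a common library size after TMM normalization. Summed over the 42 members they were 2938 to 5761 CPM in Vehicle_Ctrl (median 4079), 3929 to 5536 in Vehicle_Load (median 4269), 1890.2 to 2623 in DEX_Ctrl (median 2072) and 1364 to 2228 in DEX_Load (median 1865). Every DEX library was below every vehicle library in this sum, in loaded as in unloaded tibiae. Compared per kilobase of exon, the most abundant member in Vehicle_Ctrl was Serpinh1, at 269 ± 116 CPM per kb (SD, n = 5), followed by P4hb at 167 ± 17.4 and Rcn3 at 98.9 ± 24.2 CPM per kb. The lowest were Pcolce2 at 1.56 ± 0.316 and Colgalt2 at 1.59 ± 0.169 CPM per kb, and these neighbours did not differ beyond their spread. All 42 members passed the filter on low counts in every comparison. Exons of Fkbp10, Fkbp14, Kdelr3, Ppib, Colgalt1, Plod3 and Loxl3 overlap a protein-coding gene on the opposite strand, and those of Lox, Loxl2, P3h2, Pcolce, Plod2, Rcn3 and Sec23a another transcript there; the strand setting of the counting is not given in the sources used here, so reads of these genes may be less certain.

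In loaded tibiae 40 of the 42 members had a log2 fold change below 0 under DEX, and the median member was at -1.31, against 0.0043 for all 19781 genes tested and -0.20 for the 6594 most highly expressed of them; 49.7% of all genes were below 0. At an adjusted p under 0.05, the quasi-likelihood test of edgeR called 38 members lower, where 8.35% of all genes tested were called lower, and 1 higher, where 12.9% were called higher. In 35 members no DEX_Load library reached the lowest Vehicle_Load library, a pattern found in 8.86% of all genes. These shares are given beside the counts only, since this contrast chose the members. Of the 6594 most highly expressed genes, which hold 29 members with 28 of them called lower, 77.5% were below 0 and 16.1% were called lower. In unloaded tibiae 40 of 42 were again below 0 (46.7% of all genes), with a median of -1.01 against 0.03 for all 19738 genes tested; 24 were called lower (background 4%), 0 higher (background 2.86%), and 21 did not overlap (background 6.39%). Those values rest on 4 DEX_Ctrl libraries. Without DEX_Ctrl replicate 3 the fit called 6 members and 129 of 20368 genes in unloaded tibiae, with a member median of -0.96, against 24 and 1353 of 19738 genes with it. The direction of the calls over all genes depended on the scaling. In loaded tibiae 1652 of 4210 calls were lower with TMM over all tested genes, 1012 of 4202 with TMM over genes of at least 10 CPM, and 718 of 4851 with library size only, and the median of all genes moved to 0.18 and 0.28 with the last 2. The member median was then -1.15 and -1.06, with 36 and 33 members called lower and 1 higher. In unloaded tibiae the lower calls were 789 of 1353, 715 of 1494 and 341 of 3323 in the same order, and with library size only the median of all genes was 0.32, the member median -0.71, and 38 of 42 members were below 0. With a covariate for the receptor reads 4 members were called in loaded tibiae and 28 of all genes, the member median was -0.95, and 40 of 42 were below 0, with Plod3 (0.03) now above 0 and Colgalt2 (-0.44) below. The receptor reads and the treatment cannot be told apart there, because the groups do not overlap in them. In bulk tissue, fewer cells of a type and less RNA per cell cannot be told apart.

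**Figure D1:**
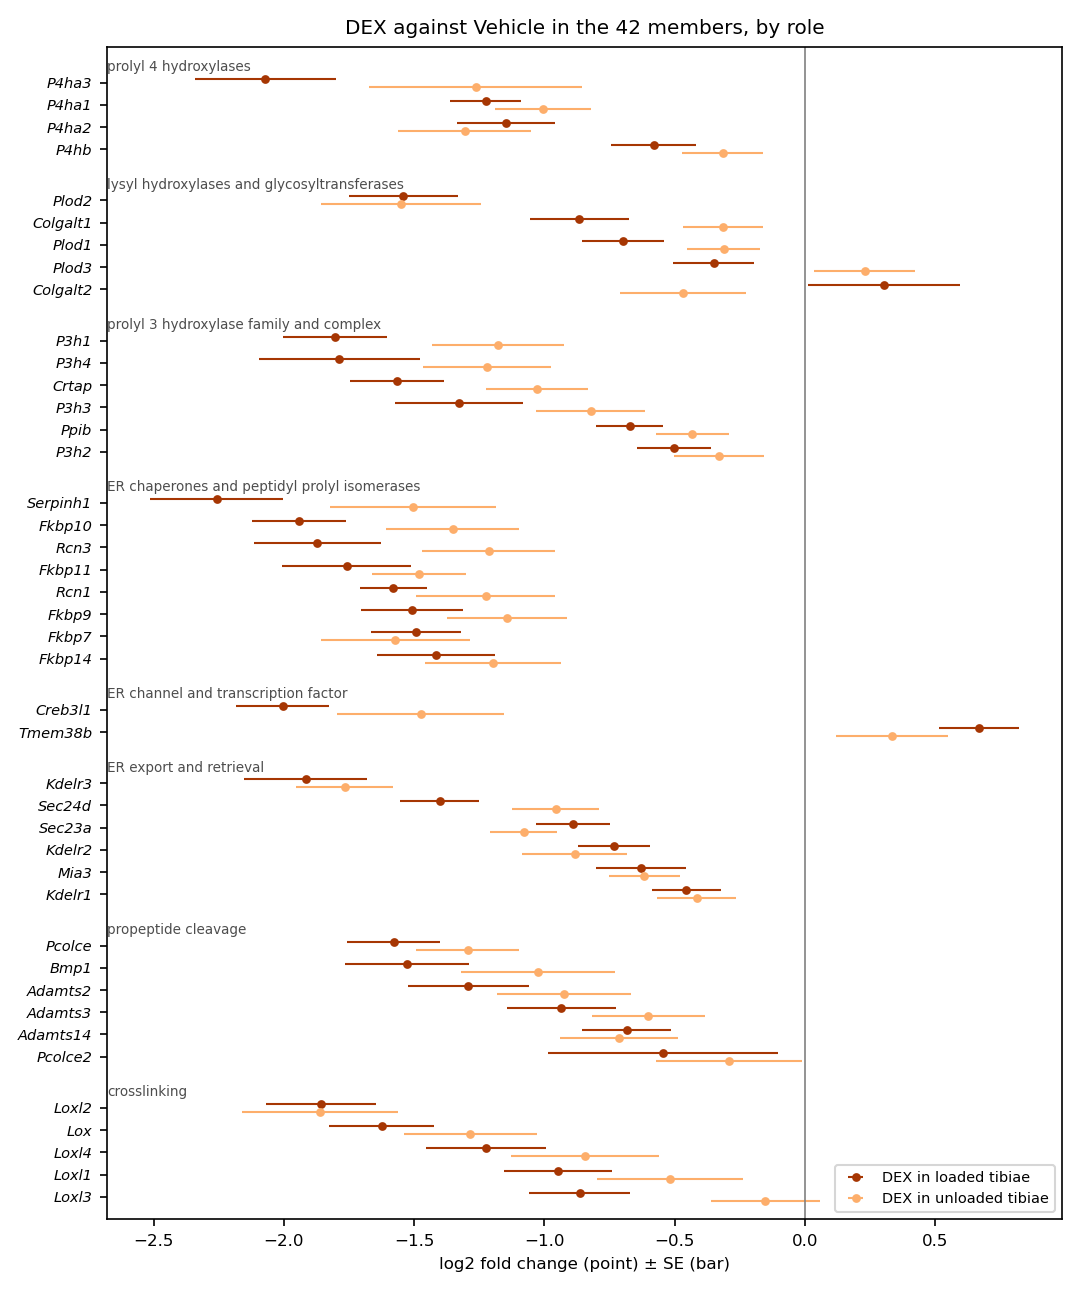
Log2 fold change of DEX against Vehicle for each of the 42 members, grouped by role, in loaded (dark) and unloaded (light) tibiae; points are edgeR estimates and bars are 1 SE. In loaded tibiae 40 points lie left of 0, from Serpinh1 at -2.26 to Plod3 at -0.35, with Colgalt2 (0.30) and Tmem38b (0.67) on the right.

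The prolyl 4-hydroxylases convert proline to 4-hydroxyproline, with catalytic alpha subunits (P4ha1, P4ha2 and P4ha3) that pair with the beta subunit P4hb, also known as protein disulfide isomerase. All 4 were lower under DEX in loaded tibiae, with a median of -1.19. Among them P4ha3 (chr7:100285520-100319699, GRCm38) had the largest change in loaded tibiae. The Vehicle_Load libraries had 31.5, 12.4, 17.3, 14.8 and 24.1 CPM of P4ha3 and the DEX_Load libraries 5.77, 4.21, 5.13, 5.20 and 2.93 CPM, a log2 fold change of -2.07 ± 0.27 (SE). P4ha3 in unloaded tibiae was at 5.43, 6.999, 22.3, 6.44 and 8.47 CPM in Vehicle_Ctrl and 5.67, 3.04, 4.82, 6.64 and 3.00 CPM in DEX_Ctrl, a log2 fold change of -1.26 ± 0.41. The loaded groups did not overlap, while in unloaded tibiae the highest vehicle value, in replicate 4, stood far above the other 4 and the groups overlapped. P4ha1 and P4ha2 were at -1.23 ± 0.14 and -1.15 ± 0.19 in loaded tibiae and -1.01 ± 0.18 and -1.31 ± 0.26 in unloaded tibiae. The shared beta subunit had the smallest change of the 4 in loaded tibiae. P4hb was at 567, 422, 449, 582 and 498 CPM in Vehicle_Load and at 326, 327, 323, 261 and 399.7 CPM in DEX_Load (log2 fold change -0.58 ± 0.16, SE). Its unloaded values were 429, 441, 525, 539 and 462 CPM in Vehicle_Ctrl and 419.9, 322, 342, 417 and 435 CPM in DEX_Ctrl (log2 fold change -0.32 ± 0.15). P4hb is also used by many proteins other than collagen. Its loaded groups were separated by a narrow gap and its unloaded groups overlapped.

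Lysyl hydroxylases (Plod1 to Plod3) and the collagen galactosyltransferases (Colgalt1 and Colgalt2) modify lysine residues, and Plod2 is the enzyme of the telopeptide lysines from which bone crosslinks form. Of these 5 genes, 4 had a log2 fold change below 0 in loaded tibiae. In loaded tibiae Plod2 stood at 170.0, 137, 152, 201 and 170.0 CPM in Vehicle_Load and at 72.5, 70.3, 55.3, 48.2 and 31.4 CPM in DEX_Load, a log2 fold change of -1.54 ± 0.21 (SE). Without loading, Plod2 had 141, 337, 234, 220.5 and 245 CPM in Vehicle_Ctrl and 115, 104, 64.2, 49.8 and 39.3 CPM in DEX_Ctrl, a log2 fold change of -1.55 ± 0.31. Plod2 was lower in every DEX library than in any vehicle library of the same loading state. Plod1 and Colgalt1 were at -0.70 ± 0.16 and -0.87 ± 0.19 in loaded tibiae and at -0.31 ± 0.14 and -0.32 ± 0.15 in unloaded tibiae. Plod3, which carries both hydroxylase and glycosyltransferase activity, was at -0.35 ± 0.16 in loaded and 0.23 ± 0.19 in unloaded tibiae. The scarce Colgalt2 had the smallest absolute change of the group in loaded tibiae. The Vehicle_Load libraries had 3.10, 2.93, 3.63, 4.79 and 4.22 CPM of Colgalt2 and the DEX_Load libraries 5.77, 4.02, 3.21, 6.46 and 3.03 CPM, a log2 fold change of 0.30 ± 0.29 (SE). Colgalt2 in unloaded tibiae was at 5.96, 6.58, 6.60, 6.70 and 7.92 CPM in Vehicle_Ctrl and 6.03, 5.52, 5.56, 5.80 and 2.43 CPM in DEX_Ctrl, a log2 fold change of -0.47 ± 0.24. The Colgalt2 groups overlapped in both loading states, at levels no higher than 7.92 CPM.

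Prolyl 3-hydroxylase 1 (P3h1) acts in a complex with the cartilage-associated protein Crtap and the isomerase cyclophilin B (Ppib), which together modify and chaperone the nascent helix. All 6 genes of this family and complex had log2 fold changes below 0 in both loading states, with a median of -1.45 in loaded and -0.93 in unloaded tibiae. P3h1 was at 83.3, 53.4, 56.9, 59.8 and 64.1 CPM in Vehicle_Load and at 18.8, 24.8, 17.5, 9.77 and 17.2 CPM in DEX_Load (log2 fold change -1.80 ± 0.20, SE). Its unloaded values were 30.5, 46.7, 70.5, 47.0 and 76.3 CPM in Vehicle_Ctrl and 32.8, 23.5, 21.2, 17.3 and 17.8 CPM in DEX_Ctrl (log2 fold change -1.18 ± 0.25). Loaded groups did not overlap in P3h1, and in unloaded tibiae the highest DEX library exceeded the lowest vehicle library. Its partners were at -1.57 ± 0.18 (Crtap) and -0.67 ± 0.13 (Ppib) in loaded tibiae, and at -1.03 ± 0.20 and -0.43 ± 0.14 in unloaded tibiae. P3h3 and P3h4, which act with lysyl hydroxylase 1, were at -1.33 ± 0.24 and -1.79 ± 0.31 in loaded tibiae. The smallest change in loaded tibiae was in P3h2, a 3-hydroxylase of basement membrane collagen. In loaded tibiae P3h2 stood at 19.5, 16.8, 16.6, 18.1 and 17.6 CPM in Vehicle_Load and at 12.3, 13.5, 13.1, 8.35 and 13.2 CPM in DEX_Load, a log2 fold change of -0.50 ± 0.14 (SE). Without loading, P3h2 had 16.6, 12.6, 18.9, 18.3 and 18.4 CPM in Vehicle_Ctrl and 10.6, 16.2, 11.9, 13.3 and 14.3 CPM in DEX_Ctrl, a log2 fold change of -0.33 ± 0.17. P3h2 differed by a narrow gap in loaded tibiae and overlapped in unloaded tibiae.

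All 8 ER chaperones and peptidyl-prolyl isomerases had log2 fold changes below 0 in both loading states, with medians of -1.67 in loaded and -1.29 in unloaded tibiae. Serpinh1 (chr7:99345376-99353239), which encodes HSP47, the chaperone specific to procollagen, had the largest change of the 42 members in loaded tibiae. The Vehicle_Load libraries had 941, 580.3, 723, 708 and 741 CPM of Serpinh1 and the DEX_Load libraries 161, 227, 175, 85.8 and 103 CPM, a log2 fold change of -2.26 ± 0.25 (SE). Serpinh1 in unloaded tibiae was at 328, 513, 1072, 597 and 776 CPM in Vehicle_Ctrl and 305, 279, 194, 172 and 143 CPM in DEX_Ctrl, a log2 fold change of -1.50 ± 0.32. The loaded fold corresponded to 0.209 of the vehicle level. All 10 DEX libraries were below all 10 vehicle libraries, although the lowest vehicle value, Vehicle_Ctrl replicate 1, stood close to the highest DEX_Ctrl value. Fkbp10, which encodes FKBP65, was at -1.94 ± 0.18 in loaded and -1.35 ± 0.25 in unloaded tibiae. The other immunophilins were at -1.76 (Fkbp11), -1.51 (Fkbp9) and -1.49 (Fkbp7) in loaded tibiae, and the calcium-binding reticulocalbins at -1.87 (Rcn3) and -1.58 (Rcn1). Fkbp14, an isomerase whose loss in humans causes a kyphoscoliotic form of Ehlers-Danlos syndrome, had the smallest change in loaded tibiae. Fkbp14 was at 24.2, 17.3, 18.0, 17.2 and 19.7 CPM in Vehicle_Load and at 8.32, 7.25, 4.49, 10.6 and 4.77 CPM in DEX_Load (log2 fold change -1.42 ± 0.23, SE). Its unloaded values were 10.1, 15.5, 26.4, 15.6 and 13.4 CPM in Vehicle_Ctrl and 8.93, 7.66, 6.55, 5.17 and 5.06 CPM in DEX_Ctrl (log2 fold change -1.20 ± 0.26). Neither pair of Fkbp14 groups overlapped.

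Creb3l1, also called OASIS, is an ER-bound transcription factor that is cleaved and moves to the nucleus, where it activates the type I collagen gene in osteoblasts. In loaded tibiae Creb3l1 stood at 144, 118, 104, 115 and 129.7 CPM in Vehicle_Load and at 38.6, 38.2, 26.1, 23.8 and 21.2 CPM in DEX_Load, a log2 fold change of -2.005 ± 0.18 (SE). Without loading, Creb3l1 had 79.1, 149, 150.1, 97.4 and 168 CPM in Vehicle_Ctrl and 75.7, 55.2, 31.0, 40.3 and 23.9 CPM in DEX_Ctrl, a log2 fold change of -1.48 ± 0.32. No DEX library reached any vehicle library of the same loading state. The only member called higher in loaded tibiae was Tmem38b (chr4:53826045-53862019), which encodes the ER cation channel TRIC-B and is named here after its values were seen. The Vehicle_Load libraries had 21.5, 14.8, 17.9, 17.2 and 17.5 CPM of Tmem38b and the DEX_Load libraries 20.3, 28.2, 29.7, 24.9 and 33.7 CPM, a log2 fold change of 0.67 ± 0.15 (SE). Tmem38b in unloaded tibiae was at 19.7, 16.1, 27.8, 17.0 and 16.1 CPM in Vehicle_Ctrl and 19.5, 18.6, 25.3, 25.0 and 32.2 CPM in DEX_Ctrl, a log2 fold change of 0.33 ± 0.22. Exons of Tmem38b overlap the ribosomal RNA gene n-R5s185 on the same strand, so its counts are less certain. Its libraries overlapped in both loading states. In loaded tibiae Tmem38b was not called with no filter or with the covariate. Nor was it called under the replicate block, which here joins vehicle and DEX libraries of the same number, or in the libraries of the block without it.

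**Figure D2:**
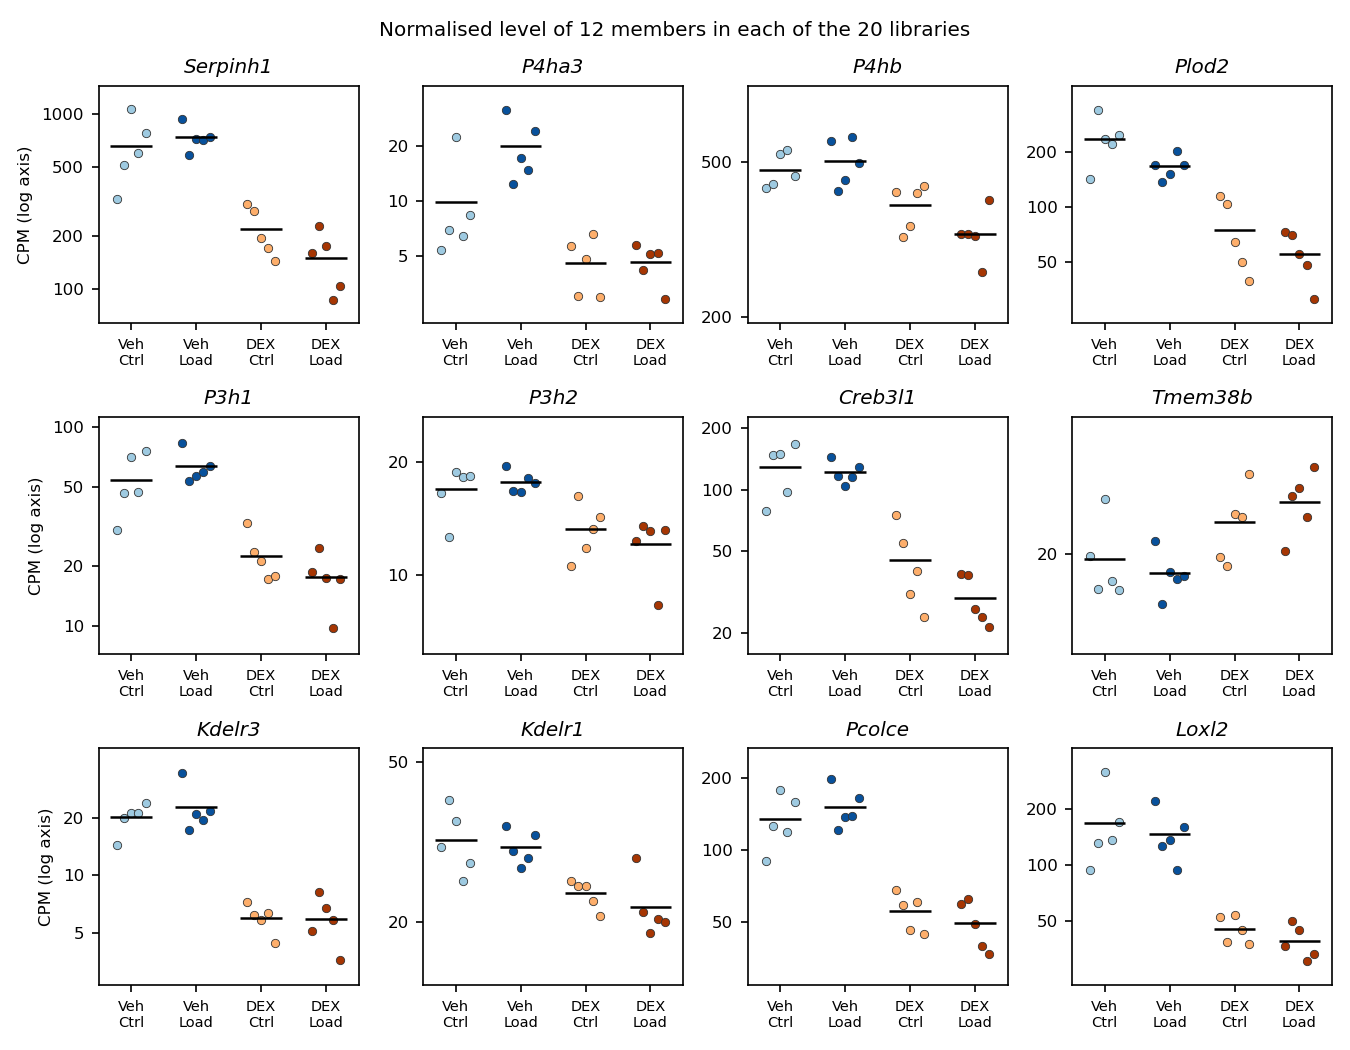
CPM on log axes of 12 members in each library, with 5 libraries per group and a line at the group mean; Veh stands for Vehicle. Serpinh1, Creb3l1, Kdelr3 and Loxl2 show DEX libraries below all vehicle libraries of the same loading state, P4hb and Kdelr1 show smaller differences, and Tmem38b lies higher on average under DEX with overlap.

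Procollagen leaves the ER in carriers coated by COPII, of which Sec23a and Sec24d are inner coat subunits, and Mia3 (TANGO1) loads it at exit sites; KDEL receptors (Kdelr1 to Kdelr3) bring escaped chaperones, HSP47 among them, back from the Golgi. The 3 receptor genes differed in size of change under DEX. Kdelr3 (chr15:79516411-79527739) had the largest of the group in loaded tibiae. Kdelr3 was at 34.6, 17.4, 20.9, 19.7 and 21.9 CPM in Vehicle_Load and at 5.10, 8.13, 6.73, 5.83 and 3.58 CPM in DEX_Load (log2 fold change -1.92 ± 0.24, SE). Its unloaded values were 14.4, 20.04, 21.2, 21.4 and 24.0 CPM in Vehicle_Ctrl and 7.24, 6.20, 5.81, 6.33 and 4.40 CPM in DEX_Ctrl (log2 fold change -1.77 ± 0.18). Every DEX library was below every vehicle library in Kdelr3. Kdelr1 had the smallest change of the group in loaded tibiae. In loaded tibiae Kdelr1 stood at 34.6, 30.1, 27.3, 28.9 and 32.9 CPM in Vehicle_Load and at 28.8, 21.2, 18.8, 20.3 and 19.9 CPM in DEX_Load, a log2 fold change of -0.46 ± 0.13 (SE). Without loading, Kdelr1 had 30.6, 40.1, 35.6, 25.2 and 28.1 CPM in Vehicle_Ctrl and 25.3, 24.6, 24.6, 22.6 and 20.7 CPM in DEX_Ctrl, a log2 fold change of -0.42 ± 0.15. Kdelr1 overlapped in both loading states, and Kdelr2 lay between, at -0.73 ± 0.14 in loaded and -0.88 ± 0.20 in unloaded tibiae. Per kilobase of exon, Kdelr2 was the most abundant receptor in Vehicle_Ctrl, at 59.3 ± 17.6 CPM per kb, against 17.0 ± 3.17 for Kdelr1 and 14.3 ± 2.50 for Kdelr3. The coat subunits were at -1.40 ± 0.15 (Sec24d) and -0.89 ± 0.14 (Sec23a) in loaded tibiae and -0.96 ± 0.17 and -1.08 ± 0.13 in unloaded tibiae, and Mia3 at -0.63 ± 0.17 and -0.62 ± 0.13.

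Since most members had lower values under DEX together, their promoters were read from RefSeq (GRCm38.p6; 250 bases before to 50 after each start). Windows were found for 28 of the 42 members; the members without one are P3h4, P3h2, Creb3l1, Bmp1, Tmem38b, Loxl1, Kdelr2, Fkbp10, Loxl3, Rcn1, Plod2, Colgalt2, Loxl2 and Lox. The unfolded protein response element TGACGTGG, known to be bound by the ER stress factors ATF6 and XBP1, was present on either strand in 4 members, among them Kdelr3, Sec24d and Adamts3, and in 0.676% of all 32851 windows. It is shown in capitals below for these 3, where CCACGTCA is the same element on the other strand, together with the window of Serpinh1, the member with the largest change in loaded tibiae, which does not hold it. The stretches are chr15:79516208-79516407 (plus strand) for Kdelr3, chr3:123267296-123267495 (plus) for Sec24d, chr5:89883335-89883584 (minus) for Adamts3 and chr7:99353240-99353489 (minus) for Serpinh1, each ending at the base before the start.
Kdelr3: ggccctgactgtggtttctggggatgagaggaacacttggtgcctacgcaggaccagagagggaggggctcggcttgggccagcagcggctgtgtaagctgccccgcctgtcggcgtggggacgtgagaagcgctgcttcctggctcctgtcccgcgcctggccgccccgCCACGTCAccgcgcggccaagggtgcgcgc
Sec24d: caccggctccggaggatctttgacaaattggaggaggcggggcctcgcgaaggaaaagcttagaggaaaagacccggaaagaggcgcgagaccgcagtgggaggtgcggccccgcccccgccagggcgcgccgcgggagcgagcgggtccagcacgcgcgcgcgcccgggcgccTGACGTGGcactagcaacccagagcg
Adamts3: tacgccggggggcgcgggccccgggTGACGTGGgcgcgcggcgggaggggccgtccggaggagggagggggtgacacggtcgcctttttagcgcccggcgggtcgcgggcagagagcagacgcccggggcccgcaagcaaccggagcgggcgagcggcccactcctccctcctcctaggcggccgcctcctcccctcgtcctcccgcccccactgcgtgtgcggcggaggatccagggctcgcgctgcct
Serpinh1: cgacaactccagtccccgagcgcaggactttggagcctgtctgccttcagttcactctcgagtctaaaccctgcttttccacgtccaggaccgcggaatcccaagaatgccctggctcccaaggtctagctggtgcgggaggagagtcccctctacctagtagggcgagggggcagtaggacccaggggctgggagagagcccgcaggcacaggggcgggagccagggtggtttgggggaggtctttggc

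The element began at position -30 in Kdelr3, -26 in Sec24d and -225 in Adamts3, counted from the RefSeq start. Its 7-base core TGACGTG, which contains the shorter TGACG and ACGTG (the full element also contains CCACG on its other strand), was also found in Fkbp11 and Mia3, 6 members in all, against 2.01% of all windows. The ER stress elements, CCAAT and CCACG with 9 bases between and ATTGG and CCACG with 1 base between, were found in 0 of the 28 members (0.119% and 0.0365% of all windows), as was the full glucocorticoid response element, AGAACA and TGTTCT with 3 bases between (0.00913%). A relaxed form of it, GNACA and TGTNC with 3 bases between, was found in Fkbp7 (0.475% of all), and its first 6 bases, AGAACA, in Colgalt1 and Pcolce2 (19% of all). The GC box GGGCGG was found in 25 of the 28 members (35.7% of all), CCACG in 21 (32.8%), ACGTG in 16 (19.6%), TGACG in 12 (20.8%) and CCAAT in 10 (37.4%). TATAAA was found in 3 (13.6%), the Runx site TGTGGT in 4 (16.8%), CAGACA in 4 (21%), and TGACGTCA and GTCTAGAC in 0 (1.79% and 0.213%). In all 17 motifs were searched on both strands, and the element shown was picked after these shares were seen. The shares over all windows were not matched to the members in base composition. The 4 printed stretches were 63.6% to 78% G and C, and the part of this in the counts was not tested. The DEX changes of these 3 members in loaded tibiae were -1.92, -1.40 and -0.94.

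Outside the cell Bmp1 removes the C-terminal propeptide with the help of the enhancers Pcolce and Pcolce2, and Adamts2, Adamts3 and Adamts14 remove the N-terminal one. All 6 genes had log2 fold changes below 0 in both loading states. Pcolce (chr5:137605103-137613784) had the largest change in loaded tibiae. The Vehicle_Load libraries had 198, 121, 138, 138 and 164 CPM of Pcolce and the DEX_Load libraries 59.2, 62.0, 49.1, 39.5 and 36.7 CPM, a log2 fold change of -1.58 ± 0.18 (SE). Pcolce in unloaded tibiae was at 89.6, 126, 178, 119 and 158 CPM in Vehicle_Ctrl and 67.8, 58.6, 46.1, 60.4 and 44.7 CPM in DEX_Ctrl, a log2 fold change of -1.29 ± 0.20. Neither pair of Pcolce groups overlapped; part of its exons is shared on the same strand with Fbxo24, so its counts are less certain. Bmp1 was at -1.53 ± 0.24 in loaded and -1.02 ± 0.30 in unloaded tibiae, and the N-proteinases at -1.29 (Adamts2), -0.94 (Adamts3) and -0.68 (Adamts14) in loaded tibiae. The second enhancer, Pcolce2, had the smallest change in loaded tibiae and was not called. Pcolce2 was at 5.29, 2.25, 6.76, 14.9 and 6.81 CPM in Vehicle_Load and at 7.25, 5.49, 2.56, 5.99 and 2.82 CPM in DEX_Load (log2 fold change -0.55 ± 0.44, SE). Its unloaded values were 5.70, 7.32, 7.85, 9.27 and 5.94 CPM in Vehicle_Ctrl and 9.53, 5.86, 5.31, 4.96 and 3.00 CPM in DEX_Ctrl (log2 fold change -0.29 ± 0.28). Pcolce2 groups overlapped widely, with Vehicle_Load replicate 5 far above the other libraries.

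Lysyl oxidase (Lox) and its relatives Loxl1 to Loxl4 oxidize lysine residues to start crosslinking, and all 5 genes had log2 fold changes below 0 in loaded tibiae, with a median of -1.23. Loxl2 (chr14:69609068-69695834) had the largest change in loaded tibiae, with the same estimate in unloaded tibiae. In loaded tibiae Loxl2 stood at 219, 127, 136, 93.7 and 159.8 CPM in Vehicle_Load and at 36.9, 50.3, 44.9, 30.9 and 33.5 CPM in DEX_Load, a log2 fold change of -1.86 ± 0.21 (SE). Without loading, Loxl2 had 93.6, 131, 312, 136 and 169 CPM in Vehicle_Ctrl and 52.7, 39.0, 54.0, 45.1 and 37.6 CPM in DEX_Ctrl, a log2 fold change of -1.86 ± 0.30. Every DEX library was below every vehicle library in Loxl2. Lox was at -1.63 ± 0.20 in loaded and -1.28 ± 0.26 in unloaded tibiae, Loxl4 at -1.23 ± 0.23 and -0.85 ± 0.29, and Loxl1, which acts mainly on elastin, at -0.95 ± 0.21 and -0.52 ± 0.28. Loxl3 had the smallest change in loaded tibiae. The Vehicle_Load libraries had 78.1, 44.3, 46.8, 42.8 and 68.1 CPM of Loxl3 and the DEX_Load libraries 34.4, 38.7, 28.3, 24.3 and 23.6 CPM, a log2 fold change of -0.87 ± 0.19 (SE). Loxl3 in unloaded tibiae was at 29.8, 30.5, 59.0, 38.6 and 48.9 CPM in Vehicle_Ctrl and 41.1, 45.4, 33.8, 33.0 and 27.3 CPM in DEX_Ctrl, a log2 fold change of -0.15 ± 0.21. In Loxl3 the loaded groups did not overlap and the unloaded groups did, with an unloaded estimate whose sign changed with the processing.

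The genes around this machinery moved by different amounts under DEX in loaded tibiae. There 8.35% of all genes and 16.1% of the 6594 most highly expressed were called lower, and 12.9% of all genes higher. All 11 fibrillar collagen chains fell, with a median of -2.42, among them the type I chain Col1a1 (-2.91 ± 0.48), and ran from Col2a1, the main chain of cartilage collagen, at -3.69 ± 0.55 to Col27a1 at -1.33 ± 0.23. Of 20 general ER folding genes, 4 fell and 1 rose, with a median of -0.38; the largest fall was in the disulfide isomerase Pdia5 (-1.35 ± 0.22) and the rise in the ER oxidase Ero1l (0.70 ± 0.18). Of 26 genes of general ER entry and export, 15 fell and 0 rose, with a median of -0.41, the largest fall in the outer coat subunit Sec31a (-1.09 ± 0.18) and the largest positive value, not called, in the coat GTPase Sar1b (0.33 ± 0.26). Of 12 ER stress regulators tested, 4 fell, with a median of -0.42; the largest fall was in Creb3l2 (-0.64 ± 0.15), a relative of Creb3l1, and the value nearest to a rise in Ern1 (-0.05 ± 0.16). In unloaded tibiae 7 of 11 fibrillar chains, 2 of 20 folding genes, 4 of 26 entry and export genes and 1 of 12 stress regulators were called lower and 2 folding genes higher, where 4% of all genes and 7.08% of the 6579 most highly expressed were called lower and 2.86% of all genes higher. These lists were chosen with the same comparisons known.

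Set against the collagen chains they serve, the members were more abundant under DEX than in vehicle. The 11 fibrillar chains summed to 73938 to 114884 CPM in Vehicle_Load and 5163 to 25378 CPM in DEX_Load, and to 42792 to 154546 CPM in Vehicle_Ctrl and 6834 to 36732 CPM in DEX_Ctrl. For each 1000 CPM of fibrillar chains there were 41.7 to 56.4 CPM of members in Vehicle_Load and 87.8 to 310.3 in DEX_Load, and 31.9 to 68.6 in Vehicle_Ctrl and 65.7 to 277 in DEX_Ctrl. The loaded groups did not overlap in this ratio and the unloaded groups overlapped through Vehicle_Ctrl replicate 1. For Serpinh1 alone the ratio was 6.15 to 9.78 CPM in Vehicle_Load and 8.95 to 19.3 CPM in DEX_Load, with overlap. Both sums come from the contrast that chose the members, so the ratio is a description.

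**Figure D3:**
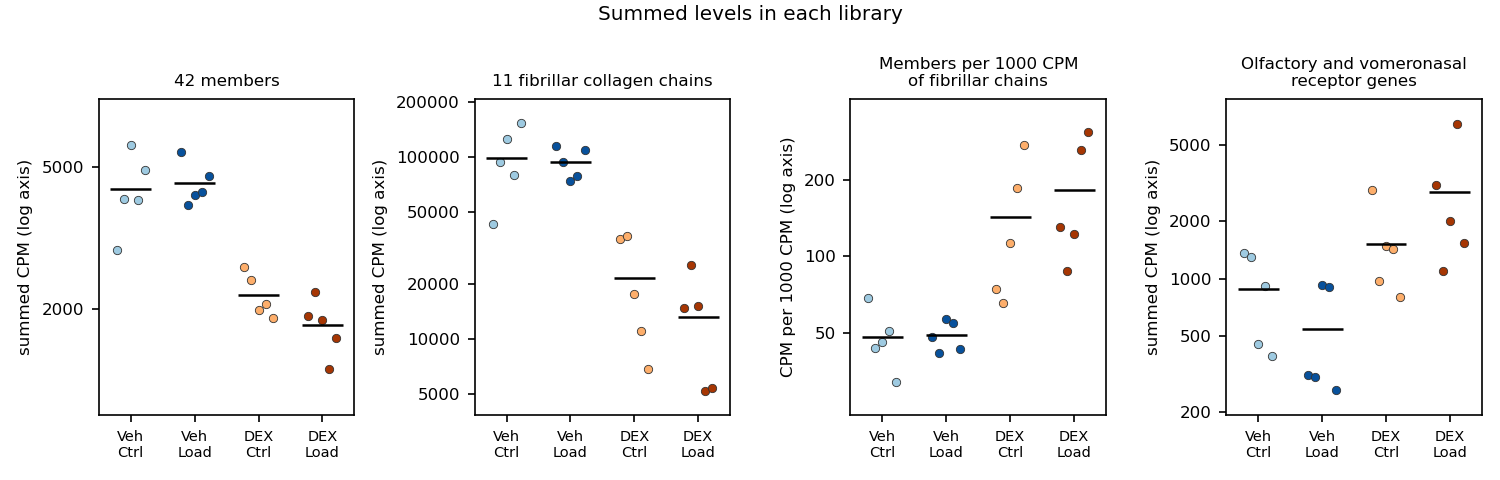
Summed CPM of the 42 members, of the 11 fibrillar collagen chains and of the olfactory and vomeronasal receptor genes, and members per 1000 CPM of fibrillar chains, in each library on log axes; lines are group means. DEX libraries lie lower in both sums, with medians of 1865 against 4269 CPM of members in loaded tibiae, and higher in the loaded ratio and the loaded receptor reads; the unloaded ratio overlaps through Vehicle_Ctrl replicate 1.

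Markers of the cells that make collagen moved with the members. Of all genes tested, 8.35% were called lower and 12.9% higher in loaded tibiae, and 4% lower in unloaded tibiae. In loaded tibiae 6 of 8 osteoblast markers fell (median -1.13; summed level 2390.0 to 3979.8 CPM in Vehicle_Load and 888 to 1742 in DEX_Load), among them the osteocalcin gene Bglap (-3.47 ± 0.55), while Runx2 (-0.42 ± 0.17) and Dlx5 (-0.43 ± 0.20) were not called. Of 7 osteocyte markers 5 fell and 1 rose, and 6 of 8 markers of periosteum and tendon fibroblasts fell, with summed levels of 1856 to 4168 CPM in Vehicle_Load and 429 to 1177 CPM in DEX_Load. Of 6 chondrocyte markers tested 5 fell; in unloaded tibiae 0 of 5 tested were called, with a median of -0.24 and 2 above 0. Neutrophil markers were higher (7 of 8 rose) and B cell markers lower (7 of 8 fell). Skeletal muscle markers were not called (0 of 8) in loaded tibiae; in unloaded tibiae they were not called either, but their median was -1.84 and their sum ran from 7095 to 30556 CPM in Vehicle_Ctrl and from 1285 to 13313 CPM in DEX_Ctrl. In unloaded tibiae 4 of 8 osteoblast markers fell, with a median of -0.95 and sums of 2915 to 5213 CPM in Vehicle_Ctrl and 1000.4 to 2472 CPM in DEX_Ctrl. The part of these markers in the member values was not tested.

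Loading in vehicle-treated mice was a contrast that the choice of members did not use, although its libraries also served in the DEX comparisons. Both tibiae of a mouse were used, but the labels do not tie a replicate number to a mouse, so loaded and unloaded libraries were compared unpaired. None of the 42 passed the threshold in edgeR. The edgeR quasi-likelihood test called 0 members and 0 of 17982 genes; at an unadjusted p under 0.05 it listed 5 members and 1771 genes (9.85%), and DESeq2 called 1 member and 141 genes (0.784%). The member median was 0.04, against -0.0022 for all genes. Of the 42 members 16 were below 0 (50.3% of all genes), but 25 without Vehicle_Ctrl replicate 1 and 12 without Vehicle_Ctrl replicate 4; at an unadjusted p under 0.05 there were 1 member and 1329 of 18409 genes without Vehicle_Ctrl replicate 2, and 11 members and 2402 of 18512 genes without Vehicle_Ctrl replicate 4. The lowest p was that of Colgalt2, which stood at 5.96, 6.58, 6.60, 6.70 and 7.92 CPM in Vehicle_Ctrl and 3.10, 2.93, 3.63, 4.79 and 4.22 CPM in Vehicle_Load. Every loaded library was below every unloaded one, a pattern found in 0.628% of all genes. Its log2 fold change was -0.89 ± 0.18 (edgeR adjusted p = 0.19), with an adjusted p of 0.00985 in DESeq2. Plod2, with the values given above, was at -0.54 ± 0.20 (edgeR adjusted p = 0.447), and P4ha3 at 0.98 ± 0.37 (edgeR adjusted p = 0.447). The P4ha3 groups overlapped through Vehicle_Ctrl replicate 4 alone; without that library its log2 fold change was 1.52. For Serpinh1 the estimate was 0.15, with a 95% interval of -0.40 to 0.70, which includes 0. Skeletal muscle markers had a median of -1.08 and chondrocyte markers of 1.42 in this comparison, with 0 called in either list. At an unadjusted p under 0.05 in edgeR, 1 of 8 muscle markers was lower and 4 of 5 chondrocyte markers were higher. Periosteum and tendon fibroblast markers were at 0.49, with 0 called and 4 of 8 higher at that p. Macrophage markers were at 0.37, with 0 called and 3 of 5 higher. Osteoclast markers were at 0.62, with 0 called and 6 of 7 higher. Osteoblast markers were at -0.35, with 0 called and 4 of 8 lower. The part of these lists in the member values was not tested.

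Under DEX, loading likewise gave 0 called members among 22542 genes with 0 calls in edgeR and 0 in DESeq2. At an unadjusted p under 0.05 edgeR listed 3 members, all lower, and 958 genes (4.25%), with 0.581% of all genes lower at that p. With a replicate block 16 members and 1696 of 21187 genes had such a p, against 2 members and 520 genes in the same libraries without it. Unblocked, there were 1 member and 2251 genes without DEX_Ctrl replicate 1, 1 and 365 without DEX_Ctrl replicate 2, 8 and 834 without DEX_Ctrl replicate 5, and 11 and 1797 without DEX_Load replicate 2; without DEX_Ctrl replicate 5, 39 genes, 0 of them members, were called. The DEX_Load libraries are those in which the members had been seen low, so the direction of the members here is a description. The median member was at -0.25 and 38 of 42 were below 0, against 47.9% of all genes but 83.2% of the 7514 most highly expressed genes, which hold 29 of the members and had a median of -0.16. All 20 general ER folding genes, 25 of 26 entry and export genes, 8 of 8 osteoblast markers (median -0.50) and 9 of 11 fibrillar chains (median -0.64) were also below 0, with 0 called. Of the periosteum and tendon fibroblast markers 6 of 8 were above 0, with a median of 0.23 and 0 called. The part of these lists in the member values was not tested. P4ha1 was at 65.7, 57.7, 54.8, 47.4 and 54.2 CPM in DEX_Ctrl and 38.5, 50.3, 43.9, 30.4 and 39.9 CPM in DEX_Load; without DEX_Ctrl replicate 4 the groups did not overlap, a pattern found in 0.594% of all genes tested. Its log2 fold change was -0.53 ± 0.17 (edgeR adjusted p = 0.733). Sec24d was at 49.8, 45.2, 40.6, 42.8 and 43.6 CPM in DEX_Ctrl and 30.6, 42.8, 36.9, 26.5 and 32.2 CPM in DEX_Load, a log2 fold change of -0.43 ± 0.17 (edgeR adjusted p = 0.733). The values of Sec24d overlapped through 1 loaded library. Creb3l1 was at -0.66 ± 0.29 (edgeR adjusted p = 0.733), and Serpinh1 at -0.62 with a 95% interval of -1.27 to 0.02. Without DEX_Load replicate 4, the shallowest library, the member median was -0.16 and 36 of 42 were below 0; with TMM over genes of at least 10 CPM, which moved the median of all genes to 0.17, 33 of 42 were below 0. Skeletal muscle markers had a median of 1.21, opposite in sign to vehicle.

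**Figure D4:**
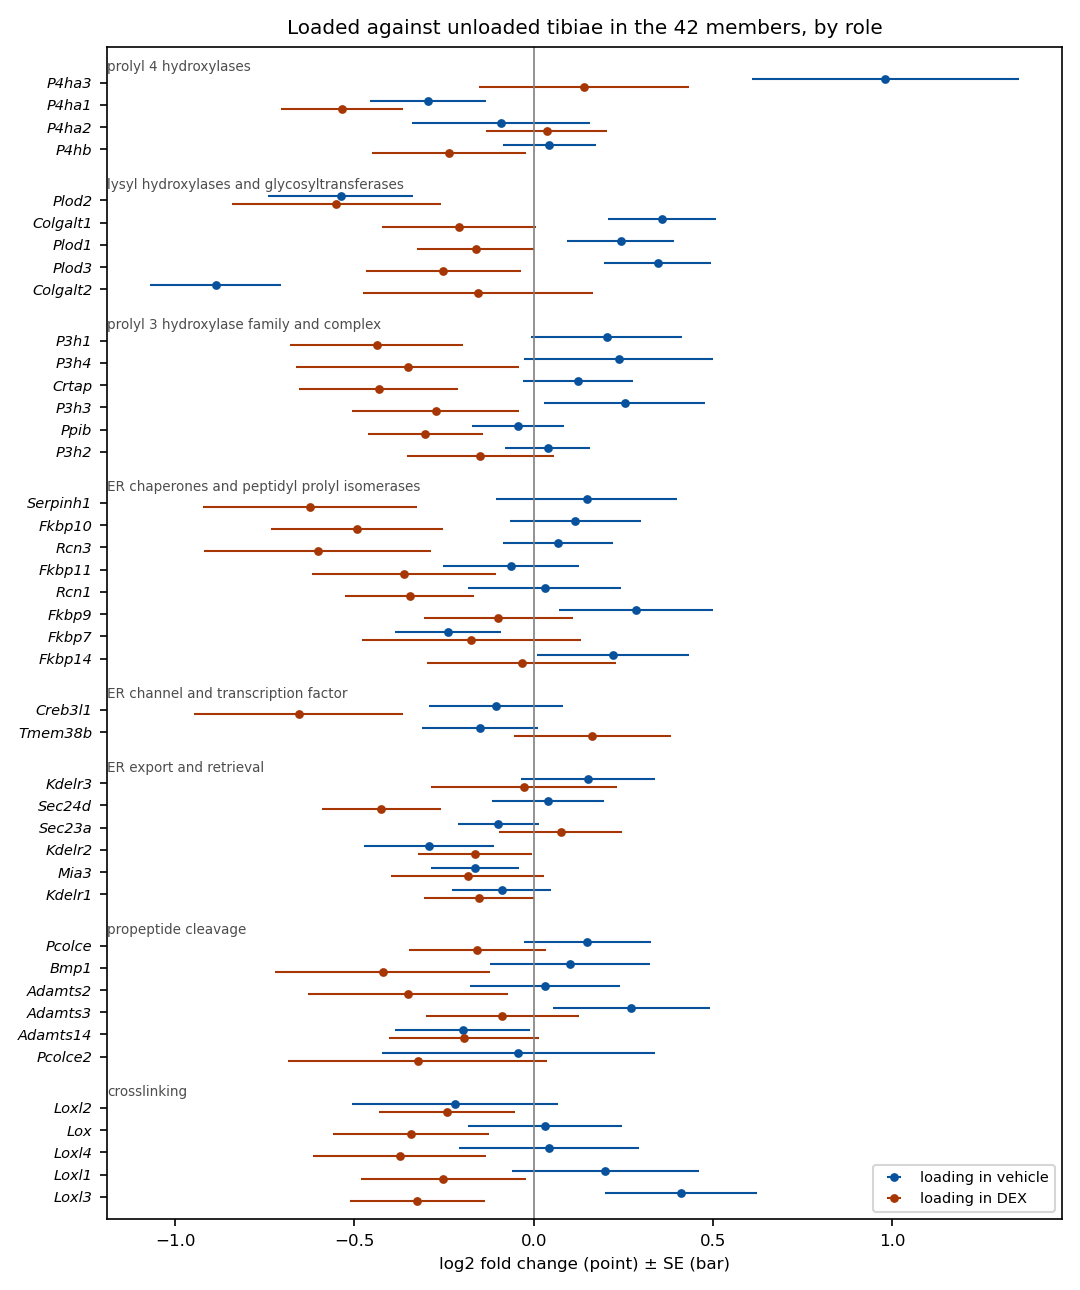
Log2 fold change of loaded against unloaded tibiae for each member in vehicle-treated (blue) and DEX-treated (red) mice, with bars of 1 SE. Vehicle points scatter around a median of 0.04 and DEX points around -0.25; no member passed the adjusted threshold in edgeR in either treatment.

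Whether the response to loading differed between treatments was tested directly as the interaction (the loading change under DEX minus that in vehicle). This is also the difference between both DEX contrasts, so it is not fully independent of the choice of members. It called 0 of 42 members and 0 of 23653 genes in edgeR; DESeq2 called 0 members and 50 genes (0.211%). The member median was -0.37 and 36 of 42 were below 0, against a median of 0.07 for all genes and -0.20 for the 7884 most highly expressed, of which 75.6% were below 0; of all genes 45.8% were. At an unadjusted p under 0.05 edgeR listed 3 members and 2858 genes (12.1%), and between 0 and 10 members with 1 library left out, the highest without Vehicle_Ctrl replicate 4 or DEX_Load replicate 2. With the covariate for receptor reads it listed 0 members, and 31 of 42 were below 0. Skeletal muscle markers had a median interaction of 2.24 (8 of 8 higher at an unadjusted p under 0.05 in edgeR) and chondrocyte markers of -1.93 (5 of 6 lower at that p). Osteoclast markers were at -0.77 (5 of 7 lower) and macrophage markers at -0.57 (4 of 5 lower). In these lists 0 were called, and their part in the member values was not tested. Loxl3, whose values by library are given above, was highest in Vehicle_Load, and its interaction was -0.75 ± 0.31 (edgeR adjusted p = 0.395). Plod3 stood at 36.1, 42.1, 60.7, 42.4 and 57.0 CPM in Vehicle_Ctrl and 73.0, 56.7, 66.4, 47.1 and 65.7 in Vehicle_Load, and at 41.6, 49.6, 61.1, 67.0 and 67.2 in DEX_Ctrl and 40.7, 48.3, 50.5, 35.3 and 59.8 in DEX_Load. Its loaded mean was the higher in vehicle and the lower under DEX, with overlap in both, and the interaction was -0.61 ± 0.27 (edgeR adjusted p = 0.404). Colgalt1 stood at 48.9, 48.6, 80.9, 65.4 and 66.7 CPM in Vehicle_Ctrl and 101, 79.0, 70.1, 65.7 and 89.5 in Vehicle_Load, and at 49.2, 48.5, 49.3, 52.1 and 49.9 in DEX_Ctrl and 41.5, 61.0, 47.3, 26.1 and 39.9 in DEX_Load. Its loaded mean was likewise the higher in vehicle and the lower under DEX, with an interaction of -0.58 ± 0.28 (edgeR adjusted p = 0.412). Exons of Loxl3, Plod3 and Colgalt1 overlap those of Htra2, Znhit1 and Unc13a on the opposite strand. For Serpinh1 the interaction was -0.78, with a 95% interval of -1.65 to 0.10.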

How the data were processed

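Bulk RNA-seq was made from the tibia of mice (total RNA kit with random priming, stranded). According to the submitters' processing notes the authors used STAR 2.7.10a and RSEM 1.2.28 with GRCm38, and deposited 1 table of expected counts per gene, which are not normalized; between 10.6% and 14.0% of values were not whole, and all were rounded. The strand setting is not given in the sources used here. Ensembl identifiers gave symbols through GENCODE M21, with 54409 of 54446 matched. Samples were grouped by the labels; 2 columns with an unmatched number were used by group only.

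Counts were fitted with edgeR 4.0.16 (filterByExpr, TMM, quasi-likelihood F test, Benjamini-Hochberg threshold 0.05, R 4.3.3), separately for each pair of groups, and over all 4 groups for the interaction; SE is the absolute log2 fold change divided by the square root of F. DESeq2 1.42.0, other scalings and filters, a replicate block, a covariate for receptor reads and leaving out each library were alternatives. Promoter sequences are printed for 4 members, and the others are not reported here. The scripts were tested on simulated counts. CPM per library used TMM over 22659 genes. Members, gene lists and tests were chosen with earlier results of these data known. In each role the member with the largest and, in roles of 4 or more, the smallest absolute DEX change in loaded tibiae is given in full, and the 3 members of lowest p in each loading comparison and the interaction. Depth, from 4641437 to 13032018 counts per library, limits the genes of low count most.

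Replicate numbers were checked as pairs of the unloaded and loaded libraries. Their deviations from the group means were correlated over the 22659 genes used to scale CPM. The correlations ran from -0.28 to 0.33 in vehicle and 0.02 to 0.38 in DEX. Over the members they ran from -0.32 to 0.58 and 0.01 to 0.82. Over all these genes, libraries of different numbers ran from -0.50 to 0.41 in vehicle and -0.52 to 0.62 in DEX. The correlations therefore do not settle the pairing. The loaded and unloaded tibiae came from the same mice, but the labels do not say that a number names a mouse. The fits are unpaired for that reason, and the replicate block is an alternative. In the DEX comparisons that block joins vehicle and DEX libraries, which come from different mice.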

Additional observations from a re-analysis of the deposited data

Results flagged for a closer look

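Of 100 groups of 5 libraries examined among the members described in full and the summed levels, 5 had 1 library far from the other 4, and chance alone gives about 1 in 20 such groups. The groups of Tmem38b entered this count again, so fewer than 100 were distinct, and no Tmem38b group was among the 5. P4ha3 was at 22.3 CPM in Vehicle_Ctrl replicate 4, and the next library was at 8.47 CPM. Colgalt2 was at 2.43 CPM in DEX_Ctrl replicate 5, and the nearest library was at 5.52 CPM. P3h2 was at 8.35 CPM in DEX_Load replicate 4, the shallowest library, and the nearest was at 12.3 CPM. Kdelr3 was at 34.6 CPM in Vehicle_Load replicate 1, and the nearest was at 21.9 CPM. Kdelr1 was at 28.8 CPM in DEX_Load replicate 1, and the nearest was at 21.2 CPM. No member had an interaction between treatment and loading past the threshold.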

How the results depend on the processing

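Members called under DEX in loaded tibiae numbered 39, with 36 to 39 when 1 library was left out, and 4 with the covariate for receptor reads (28 of all genes). In unloaded tibiae 24 were called (1353 of all genes), 6 to 27 with 1 library left out, 5 with the replicate block (513 genes), 7 in the same libraries without it (555 genes), and 19 with the covariate (2595 genes). In the DEX comparisons the block joined vehicle and DEX libraries of the same number, which come from different mice. It used only the numbers found in both groups, so fewer libraries entered. Loading in vehicle gave 0 members in edgeR and 1 (Colgalt2) in DESeq2; the block changed no call in the loading comparisons or the interaction, and under it 16 members had an unadjusted p under 0.05 for loading in DEX against 2 in the same libraries without it. Loaded libraries were below the unloaded library of the same number in 5 of 5 DEX numbers, DEX_Ctrl replicate 4 included, for Serpinh1, Creb3l1 and the summed members, and in 2, 3 and 3 of 5 in vehicle. Calls over all genes ran from 28 to 9008 in loaded tibiae (4210 in the reported fit) and from 129 to 3323 in unloaded tibiae (1353). Member estimates under DEX that changed sign were Colgalt2 (-0.44) and Plod3 (0.03) in loaded and Loxl1 (0.06) in unloaded tibiae with the covariate, Pcolce2 in unloaded tibiae with library size only (0.022), and Loxl3 in unloaded tibiae with library size only (0.15), the replicate block (0.18), its libraries without the block (0.20), the covariate (0.13) and, with 1 library left out, a range of -0.28 to 0.0029; the cause was not tested. Among the named members 799 alternative values kept direction and side of the threshold, 65 no longer passed it, 5 newly passed it and 7 changed sign. Depth limits the members near 5 CPM most, such as Colgalt2 and Pcolce2.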
